A study of Mus musculus with 26 samples.

Results

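The collagen genes of mouse embryonic fibroblasts were taken as all protein-coding genes of the GENCODE M21 annotation whose symbol has the form Col, number, a, number. There were 44 of them among 21951 protein-coding genes, and all 44 had a row in the RNA-Seq files. They lie on 15 chromosomes. Their median gene length was 114387.5 bp, against 17403 bp over all protein-coding genes, and their median exonic length was 7542.5 bp, against 3498 bp.

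Collagens are secreted proteins of the extracellular matrix built from chains that wind into a triple helix. Fibrillar collagens such as types I, III and V form the tensile fibrils of connective tissue, type IV forms the network of basement membranes, type VI forms beaded filaments around cells, and the fibril-associated collagens with interrupted triple helices (FACIT) sit on the surface of fibrils. Fibroblasts are a main source of type I collagen, whose Col1a1 and Col1a2 chains assemble into a heterotrimer.

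The study asked what the RNA-binding region (RBR) of the chromatin remodeller ATRX does. All cells were female mouse embryonic fibroblasts (MEFs). WT cells were compared with ATRXΔRBR cells, a clonal line in which CRISPR/Cas9 removed the RBR from the endogenous gene, and with ATRX KD cells, which carry an shRNA against ATRX and were selected with puromycin. RNA-Seq had 2 biological replicate libraries per genotype. CUT&RUN, in which chromatin fragments bound by an antibody are released and sequenced, had 2 peak lists each for ATRX (WT and ATRXΔRBR), for EZH2, the methyltransferase of Polycomb repressive complex 2, and for H3K27me3, the repressive histone mark that EZH2 places (all 3 genotypes).

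The RNA-Seq libraries held between 9051693 and 21723647 estimated counts. Atrx, the targeted gene, was at 633 and 434 CPM (counts scaled to library size) in WT, at 371 and 312 CPM in ATRXΔRBR, and at 411 and 550 CPM in the libraries labelled ATRX KD. Neither difference from WT was called (log2 fold change −0.63 ± 0.22 (SE), adjusted p = 0.14 for ATRXΔRBR; −0.15 ± 0.21, adjusted p = 0.604 for ATRX KD), and a gene-level count does not check the deletion of the RBR. The paper describes ATRX as acutely depleted in its ATRX KD lines, with a western blot of nuclear extract. A western blot measures protein, which these RNA counts do not. The raw files of the WT and ATRXΔRBR libraries carry the name of a shared sequencing run and those of ATRX KD do not. The knockdown and a batch thus cannot be told apart. The fibroblast markers Vim (3903 to 6511 TPM, an RNA level scaled for gene length and library size) and Fn1 (684 to 1731 TPM) were high in every library, while Thy1 and Fap were at 0 in all 6. Lum reached at most 0.09 TPM, Postn 1.5 TPM and Dcn 4.22 TPM in any library. Of 12 fibroblast markers listed, 7 in WT, 8 in ATRXΔRBR and 7 in ATRX KD were over 1 TPM in both libraries. Summed epithelial markers did not exceed 1.12 TPM in any library.

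In WT cells the collagen RNA was dominated by type I. Col1a2 was at 2145 and 1772 TPM and Col1a1 at 980.0 and 612 TPM, and both chains together made up 71.4% and 64.3% of the summed collagen TPM. Next came Col5a2 (322 and 348 TPM) and Col6a1 (275 and 335 TPM), then Col6a2 (120 and 124 TPM), a partner of Col6a1 in the type VI trimer, and Col5a1 (96.7 and 101.1 TPM), a partner of Col5a2 in type V. Col12a1, a FACIT collagen on the surface of type I fibrils, was at 93.2 and 79.3 TPM. Col7a1, the anchoring fibril collagen, was at 83.9 and 59.95 TPM, Col8a1, a short-chain network collagen, at 67.6 and 74.7 TPM, and Col16a1, a FACIT collagen, at 58.5 and 37.6 TPM. The libraries of Col5a2 and Col6a1 overlapped in range, and those of Col7a1 overlapped with those of Col12a1 and of Col8a1, so the order within these pairs is not resolved by 2 libraries. Between 19 and 21 collagen genes reached 1 TPM in a WT library, 19 or 20 in ATRXΔRBR and 14 in each ATRX KD library. The type IV chains Col4a1 and Col4a2, the main chains of most basement membranes, had no more than 6 and 5 counts in any WT library.

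**Figure D1:**
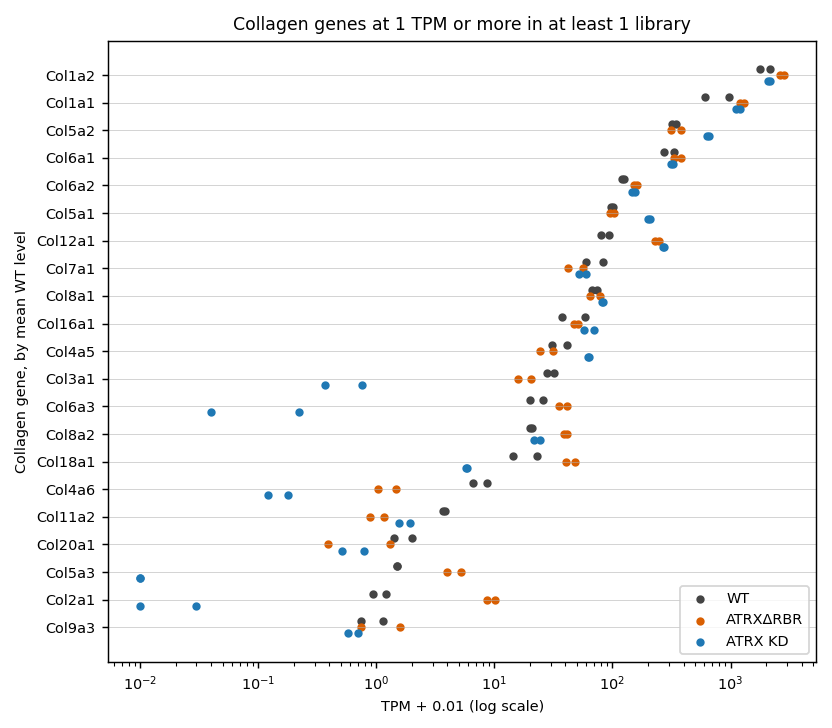
TPM of the 21 collagen genes that reached 1 TPM in at least 1 library, on a log scale with 0.01 added, with 1 point per library (2 per genotype) and genes ordered by mean WT level. Type I genes stay at the top in all 3 genotypes, while Col3a1, Col6a3, Col4a6, Col5a3 and Col2a1 lie far to the left in the ATRX KD libraries.

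The share of all counts that fell on collagen genes was 1.23% and 0.9504% in the WT libraries. It was 1.45% and 1.43% with ATRXΔRBR, and 1.25% and 1.34% with ATRX KD. Col1a1 was at 1304 and 1196 TPM in ATRXΔRBR and 1113 and 1210.0 TPM in ATRX KD, and Col1a2 at 2848 and 2603 TPM and 2088 and 2179 TPM. Neither was called against WT (Col1a1: log2 fold change 0.60 ± 0.27, adjusted p = 0.263 in ATRXΔRBR and 0.34 ± 0.26, adjusted p = 0.353 in ATRX KD; Col1a2: 0.40 ± 0.19, adjusted p = 0.289 and −0.09 ± 0.17, adjusted p = 0.701). WT replicate 2 was the lowest library for both genes, and without WT replicate 1 the Col1a1 estimate was 1.12 in ATRXΔRBR and 0.85 in ATRX KD and was called in both. The ratio of Col1a1 to Col1a2 TPM was 0.457 and 0.345 in the WT libraries, against 0.458 and 0.459 with ATRXΔRBR and 0.533 and 0.555 with ATRX KD. Col6a1, Col6a2, Col8a1 and Col16a1 were not called against WT in either genotype, with log2 fold changes between −0.15 and 0.29. Leaving out a WT library made further calls in ATRX KD: without WT replicate 1 Col16a1 was called at 0.31 (0.05 with all libraries) and Col6a1 at −0.23 (from −0.15), and without WT replicate 2 Col1a2 was called at −0.32.

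Deletion of the RBR went with higher RNA of 6 collagen genes and lower RNA of 4. ATRXΔRBR cells are a clonal line, so the deletion and other traits of the clone cannot be told apart, in RNA or in peaks. Of the 44 genes, 30 had more than 10 counts over the WT and ATRXΔRBR libraries and were tested with edgeR, and 20 of these were not called. Over all 16287 genes tested, 2.79% were called higher and 4.08% lower. Called genes had an adjusted p under 0.05. The median log2 fold change of the 30 collagen genes was −0.14, against −0.02 over all genes tested, and it took no stable direction, at 0.17 when each library had to hold 10 counts or more of a gene and at 0 with limma on log2(TPM + 1).

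The largest rise was that of Col2a1, the fibrillar collagen of cartilage. It was at 0.92 and 1.21 TPM in WT and 10.2 and 8.63 TPM in ATRXΔRBR, so that the libraries did not overlap (log2 fold change 3.41 ± 0.24, adjusted p = 0.000367). The other cartilage markers listed did not move in 1 direction. Sox9, a cartilage transcription factor, was at 21.96 and 11.8 TPM in WT and 13.7 and 15.7 TPM in ATRXΔRBR, and Acan, the cartilage proteoglycan aggrecan, was at 0.60 and 0.73 TPM in WT and at 0 in both ATRXΔRBR libraries. Comp, a cartilage matrix protein, had 5 and 3 counts in WT and 17 and 15 with ATRXΔRBR, Matn3 had at most 8 counts and Matn1 at most 3 in any library, and Hapln1 had none. Col5a3, a minor type V chain, was at 1.48 and 1.5 TPM in WT and 5.17 and 3.96 TPM in ATRXΔRBR (1.55 ± 0.24, adjusted p = 0.00808). Col12a1 rose from 93.2 and 79.3 TPM to 248 and 227 TPM (1.46 ± 0.32, adjusted p = 0.0323). In CPM its replicates lay further apart, at 217 and 351 in WT and 984 and 566 in ATRXΔRBR. Both ATRXΔRBR libraries of each of these genes lay above both WT libraries.

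Col18a1, the multiplexin collagen that carries endostatin, was at 14.4 and 23.1 TPM in WT and 47.9 and 40.3 TPM in ATRXΔRBR (1.37 ± 0.17, adjusted p = 0.00331). Col6a3, the third chain of the common type VI trimer, was at 20.02 and 25.7 TPM and 41.5 and 35.0 TPM (1.06 ± 0.24, adjusted p = 0.0363). Col8a2, the partner of Col8a1, was at 20.6 and 20.1 TPM and 41.2 and 38.7 TPM (0.89 ± 0.18, adjusted p = 0.0226). In Col6a3 and Col8a2 the WT and ATRXΔRBR libraries were also apart, but the call of Col6a3 was lost without ATRXΔRBR replicate 1 (log2 fold change 0.74), and that of Col8a2 without WT replicate 2 (0.82) and without ATRXΔRBR replicate 2 (0.83).

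Among the genes that fell, Col4a6, a type IV chain of smooth muscle and epithelial basement membranes, went from 6.57 and 8.63 TPM to 1.45 and 1.03 TPM (log2 fold change −2.69 ± 0.24, adjusted p = 0.000807). Its neighbour Col4a5 starts 1309 bp away on the opposite strand of the X chromosome. Col4a5 was at 30.8 and 41.3 TPM in WT and 31.4 and 24.2 TPM in ATRXΔRBR and was not called (−0.43 ± 0.22, adjusted p = 0.328). Col3a1, a major fibril component of elastic tissues, was at 28.1 and 32.2 TPM and 20.3 and 15.8 TPM (−0.91 ± 0.18, adjusted p = 0.0225), a call that was lost without WT replicate 1 (−0.79) and without ATRXΔRBR replicate 2 (−0.86). Col11a2, a fibrillar chain of cartilage, was at 3.67 and 3.82 TPM and 1.15 and 0.87 TPM (−1.59 ± 0.30, adjusted p = 0.0193). Col27a1, a further fibrillar chain, had 23 and 27 counts in the WT libraries and 2 in each ATRXΔRBR library (−3.45 ± 0.58, adjusted p = 0.0117). The fibrillar class thus held calls in both directions, with 2 of its 9 tested members higher and 3 lower. With limma on log2(TPM + 1) the calls were 2 higher (Col2a1 and Col12a1) and 1 lower (Col4a6), and these 3 were the calls that held under every alternative in which the gene was tested.

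**Figure D2:**
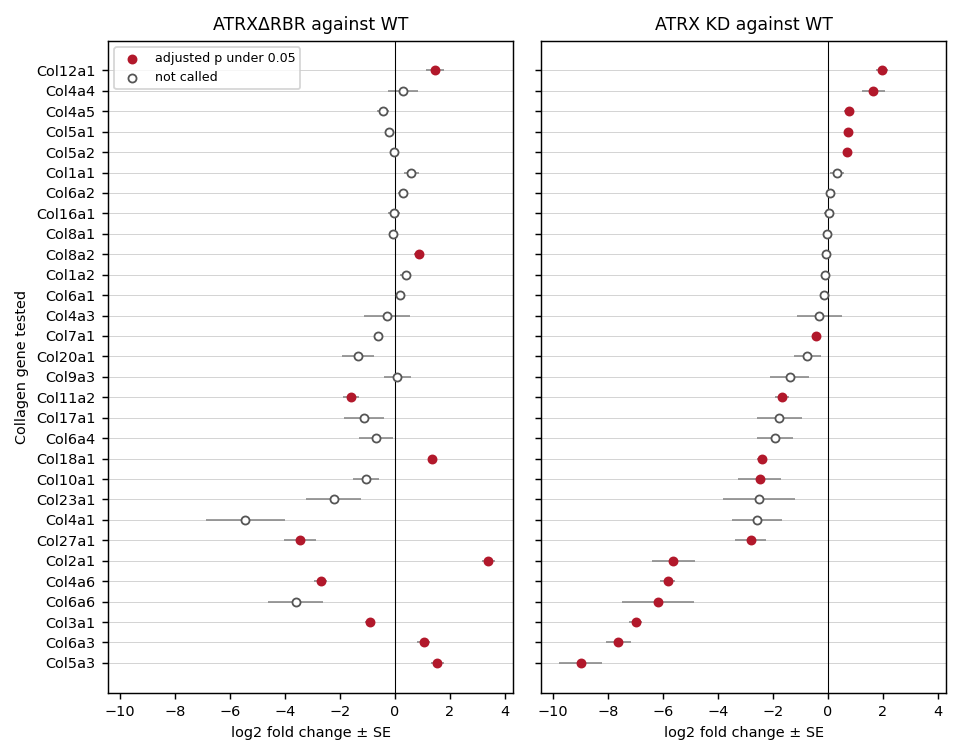
Log2 fold change against WT with its SE (edgeR, 2 libraries against 2) of the 30 collagen genes tested, in ATRXΔRBR on the left and ATRX KD on the right, where filled red points had an adjusted p under 0.05. Col2a1, Col5a3, Col6a3 and Col18a1 lie right of 0 in ATRXΔRBR and left of 0 in ATRX KD, and the fitted values of genes without a count in a group depend on the test's prior count.

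In the libraries labelled ATRX KD, 5 collagen genes were higher than in WT and 11 lower, of 30 tested. Over all 16748 genes tested, 15.2% were called higher and 17.8% lower. The comparison shares its WT libraries with the preceding one. The median log2 fold change of the collagen genes tested was −1.07, against −0.02 over all genes, and it ranged from −1.30 to −0.39 when each library was left out in turn. When each library had to hold 10 counts or more of a gene, it was −0.02, with 3 collagen genes lower. Without ATRX KD replicate 2, the deepest library, 2 genes were called higher and 8 lower, and without WT replicate 1 the numbers were 8 and 12. Over all genes tested, the median log2 fold change rose with exonic length, from −0.25 under 2 kb to 0.29 over 8 kb, and with that trend removed 4 collagen genes were higher and 11 lower.

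Several collagen genes were close to the detection limit in ATRX KD. Col3a1 went from 28.1 and 32.2 TPM in WT to 0.36 and 0.75 TPM (4 and 12 counts; log2 fold change −6.99 ± 0.23, adjusted p = 2.44e-05). Col6a3 went from 20.02 and 25.7 TPM to 0.21 and 0.03 TPM (7 and 2 counts; −7.62 ± 0.45, adjusted p = 0.000133). Its TPM was 0.0729 and 0.0769 of that of Col6a1 in the WT libraries, 0.108 and 0.105 with ATRXΔRBR, and 0.000675 and 9.19e-05 with ATRX KD. The level of Col6a1 itself was 311 and 326 TPM in ATRX KD, within the range of the WT libraries. In CPM Col6a1 was at 560 and 594 in ATRX KD, below both WT libraries (609 and 667), and was not called. Thus 2 of the 3 chains of the common type VI trimer stayed abundant while the third was nearly absent as RNA.

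Col5a3 had 64 and 50 counts in WT and none in either ATRX KD library, at least 46.7-fold lower with a floor of 3 counts over both libraries (adjusted p = 0.000811). Col2a1 had 27 and 23 counts in WT and 0 and 1 in ATRX KD, a 61.4-fold lower level with a 95% interval of 10.5 to 2470.0 that covers counting error only (adjusted p = 0.00235). Col6a6, a type VI chain, had 9 and 7 counts in WT and none in ATRX KD, at least 6.55-fold lower (adjusted p = 0.0158), and its call was lost without ATRX KD replicate 2. Col4a6 was at 0.11 and 0.17 TPM in ATRX KD, below both WT and ATRXΔRBR (against WT −5.83 ± 0.27, adjusted p = 6.15e-05). Col18a1 was at 5.91 and 5.74 TPM (−2.40 ± 0.17, adjusted p = 0.000202).

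Smaller differences were seen for Col11a2, at 1.54 and 1.93 TPM in ATRX KD (log2 fold change −1.67 ± 0.26, adjusted p = 0.00364), and for Col7a1, at 51.7 and 59.4 TPM (−0.43 ± 0.12, adjusted p = 0.0356), whose call was lost without either ATRX KD library. Col27a1 had 1 and 8 counts (−2.81 ± 0.58, adjusted p = 0.0109). The calls of Col11a2 and Col27a1 did not hold under every alternative in which the genes were tested. Col10a1, the collagen of hypertrophic cartilage, had 20 and 16 counts in WT and 5 and 2 in ATRX KD (−2.48 ± 0.77, adjusted p = 0.0445), and its call was lost without ATRX KD replicate 2 (−1.36).

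The genes that were higher in ATRX KD included both main type V chains. Col5a1 was at 198 and 208 TPM, against 96.7 and 101.1 TPM in WT (log2 fold change 0.74 ± 0.12, adjusted p = 0.00502), and Col5a2 at 630 and 654 TPM, against 322 and 348 TPM (0.69 ± 0.10, adjusted p = 0.00356). The calls of both were lost without ATRX KD replicate 2 (0.66 and 0.65). The ratio of Col5a2 to Col5a1 TPM stayed between 3.15 and 3.73 in all 6 libraries. Fold changes were fitted to counts, in which both genes rose less than in TPM. Col5a1 was at 404 and 358 CPM in WT and 595 and 682 CPM in ATRX KD. Col5a2 was at 1136 and 1100 CPM in WT and 1729 and 1885 CPM in ATRX KD. Col12a1 reached 273 and 267 TPM (1.98 ± 0.22, adjusted p = 0.00108). Col4a5 was at 62.0 and 63.0 TPM (0.77 ± 0.17, adjusted p = 0.0127), so the divergent neighbours Col4a5 and Col4a6 moved in opposite directions. Col4a4, a type IV chain of kidney basement membrane, had 10 and 7 counts in WT and 19 and 48 in ATRX KD (1.65 ± 0.42, adjusted p = 0.0235), and its call was lost without ATRX KD replicate 2 (1.62).

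The libraries labelled ATRX KD were also set directly against ATRXΔRBR. Of 26 collagen genes tested, 4 were higher and 9 lower in ATRX KD, where 16.3% of 16485 genes were called higher and 18.5% lower. The 4 genes that were above WT in ATRXΔRBR and below it in ATRX KD differed strongly: Col5a3 was at least 135-fold lower (133 and 173 counts in ATRXΔRBR and none in ATRX KD, adjusted p = 1.13e-05), Col2a1 was 652-fold lower with a 95% counting interval of 116 to 25800.0 (adjusted p = 1.68e-06), Col6a3 had a log2 fold change of −8.70 ± 0.45 (adjusted p = 3.12e-06), and Col18a1 one of −3.78 ± 0.15 (adjusted p = 9.78e-07). Col12a1 was not called (0.51 ± 0.22, adjusted p = 0.111), but was called without ATRXΔRBR replicate 1 (0.96) and without ATRXΔRBR replicate 2 (0.16), and a p above the threshold does not show that both genotypes had the same level. Also lower were Col3a1 (−6.09 ± 0.24), Col4a6 (−3.17 ± 0.43), Col8a2 (−0.95 ± 0.13), Col1a2 (−0.51 ± 0.10) and Col6a1 (−0.34 ± 0.11), of which Col6a1 was called at an adjusted p of 0.0447 and Col1a2 at 0.00551. Both of these calls were lost without either ATRX KD library. The higher genes were Col4a4 (1.34 ± 0.43), Col4a5 (1.19 ± 0.15), Col5a1 (0.94 ± 0.13) and Col5a2 (0.70 ± 0.12), of which the calls of Col4a4 and Col5a2 were lost without ATRX KD replicate 2, and that of Col4a4 also without ATRX KD replicate 1 and without ATRXΔRBR replicate 2.

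In all, 14 collagen genes had too few counts to be tested against WT in either genotype, among them Col9a1, Col9a2 and Col25a1, each at 0 counts in all 6 libraries. By class, the transmembrane collagens (Col13a1, Col17a1, Col23a1 and Col25a1) summed to no more than 0.48 TPM in any library. FACIT collagens summed to 154 and 120 TPM in WT, 297 and 281 TPM in ATRXΔRBR and 345 and 326 TPM in ATRX KD, most of it Col12a1.

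The enzymes, chaperones and receptors of collagen were followed in a list of 59 genes. It also held 12 proteoglycans and glycoproteins associated with fibrils, which do not make collagen, and is called the biosynthesis list for short. Of the 59 genes, 51 were tested against WT. In ATRXΔRBR 7 were higher and 3 lower, and in ATRX KD 13 were higher and 10 lower, beside the shares of all genes given above. Their median log2 fold change was −0.10 in ATRXΔRBR and 0.09 in ATRX KD. The count of 13 moved to between 5 and 21 when each library was left out, with the lowest value without ATRX KD replicate 2 and the highest without WT replicate 2. Serpinh1, the collagen chaperone Hsp47, was between 609 and 718 TPM in all 6 libraries.

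Prelp, a small leucine-rich proteoglycan that binds collagen, had 8 and 10 counts in the WT libraries and 79 and 103 with ATRXΔRBR (log2 fold change 3.44 ± 0.35, adjusted p = 0.00137), and none in ATRX KD, at least 7.37-fold below WT. P4ha3, a prolyl 4-hydroxylase subunit, had 10 and 6 counts in the WT libraries, 26 and 38 with ATRXΔRBR (2.10 ± 0.44, adjusted p = 0.0276) and none in ATRX KD, at least 6.55-fold below WT. Tgm2, a crosslinking transglutaminase, was at 12.03 and 12.01 TPM in WT, 38.9 and 36.1 TPM in ATRXΔRBR (1.58 ± 0.18, adjusted p = 0.00204) and 1.99 and 1.94 TPM in ATRX KD. These genes had their highest values in ATRXΔRBR and their lowest in ATRX KD.

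P3h3, a prolyl 3-hydroxylase family member, was at 33.5 and 39.2 TPM in WT, 13.3 and 11.7 TPM in ATRXΔRBR (log2 fold change −1.56 ± 0.19, adjusted p = 0.00292) and 2.71 and 3.13 TPM in ATRX KD (−3.85 ± 0.19, adjusted p = 6.7e-05). Itga10, a collagen-binding integrin chain, was at 1.96 TPM in both WT libraries and 6.70 and 4.24 TPM in ATRXΔRBR (1.34 ± 0.26, adjusted p = 0.0209). Thbs2, a matricellular thrombospondin, had 359 and 407 counts in WT and 0 and 3 in ATRX KD, a 314-fold lower level with a 95% counting interval of 107 to 1520.0. Dcn, the proteoglycan decorin of collagen fibrils, had 19 and 8 counts in WT and none in ATRX KD, at least 11.1-fold lower. Against ATRXΔRBR, the ATRX KD libraries were at least 80.2-fold lower for Prelp, 36.6-fold for Dcn, 28.2-fold for P4ha3 and 11.5-fold for Fmod, the proteoglycan fibromodulin, and 205-fold lower for Thbs2 with an interval of 69.7 to 997. The summed markers of muscle and smooth muscle were at 68.3 to 70.8 TPM in WT, 58.7 to 62.7 TPM in ATRXΔRBR and 8.51 to 9.53 TPM in ATRX KD, with 2 or 3 of the 6 listed genes over 1 TPM and Myod1 at 0 in every library. Most of this sum was Acta2, at 60.5 and 57.1 TPM in WT and 4.73 and 4.77 TPM in ATRX KD. Tagln was lower as well, at 9.87 and 10.4 TPM in WT and 2.55 and 4.05 TPM in ATRX KD. Myh11 had 1 and 0 counts in WT and 8 and 13 in ATRX KD. Des and Cnn1 had at most 5 counts in any library of these groups. Summed neural markers were at 19.6 to 30.3 TPM in WT, 21.9 to 26.9 TPM in ATRXΔRBR and 49.9 to 51.5 TPM in ATRX KD, with Sox10 at 0. The higher sum was that of Map2, at 14.6 and 25.6 TPM in WT and 49.2 and 45.5 TPM in ATRX KD, while Tubb3 was at 2.45 and 2.87 TPM and 1.48 and 2.67 TPM. Thus the 2 muscle markers over 1 TPM in WT and ATRX KD were both lower in ATRX KD, while Map2 and Tubb3 did not move together. The part of these markers in the collagen differences was not tested. Endothelial markers summed to at most 6.11 TPM and immune markers to at most 14.6 TPM in any library, and osteoblast markers to between 17.0 and 30.0 TPM.

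H3K27me3 was placed at a gene when a peak touched the 2 kb on either side of its transcription start site (TSS). In both WT lists 15 of the 44 collagen genes (34.1%) had such a peak, against 15.6% and 16.4% of all protein-coding genes. Of these 15 genes 1 reached a mean of 1 TPM in WT, and their median was 0.155 TPM, while 19 of the 29 without a peak in either list reached it and their median was 18.8 TPM. Over all protein-coding genes, 17.6% of those with a peak in both lists and 59.1% of those with none reached 1 TPM. Col1a1, Col1a2, Col3a1, Col5a1, Col5a2, Col6a1, Col6a2 and Col6a3 had no H3K27me3 peak at the TSS in any of the 6 lists. For Col3a1 and Col6a3 this includes both ATRX KD lists, where their RNA was nearly absent, and EZH2 was likewise without a peak at either TSS in every list. Col6a3 had EZH2 peaks in the gene body in both WT lists. The ATRX KD lists were much shorter, with H3K27me3 over 6.37 and 5.6 Mb, against 103 and 118 Mb in WT. A missing peak there carries little weight, and the part of Polycomb in these RNA differences was not tested.

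**Figure D3:**
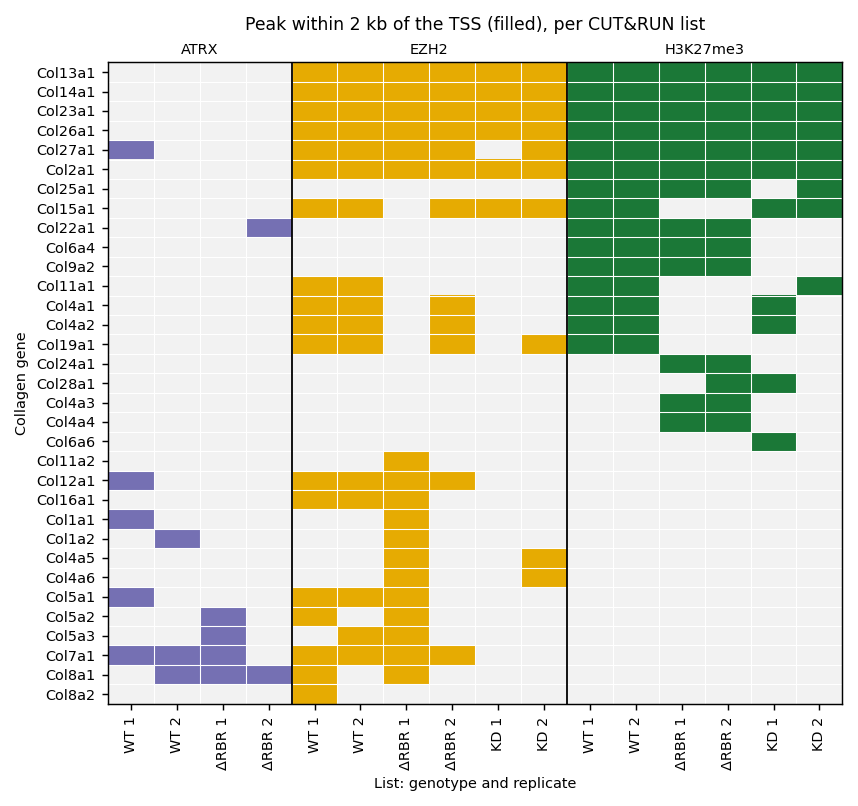
Peaks within 2 kb of the TSS (filled squares) of the 33 collagen genes with at least 1 such peak, in each of the 16 lists, which are ordered by target, genotype and replicate. The green block of H3K27me3 holds 15 genes in both WT lists, and Col24a1, Col4a3 and Col4a4 gain it in both ATRXΔRBR lists.

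In ATRXΔRBR, 13 and 14 collagen genes had H3K27me3 at the TSS. Of the 15 genes marked in both WT lists, 5 had no peak in either ATRXΔRBR list (Col11a1, Col15a1, Col19a1, Col4a1 and Col4a2), where 29.2% of all marked protein-coding genes did the same. At q under 0.01 the losses were those of Col15a1, Col25a1, Col4a1 and Col4a2. When a peak near any annotated transcript start was counted, the losses were those of Col11a1, Col15a1, Col19a1 and Col4a2. Of the 29 genes without a peak in either WT list, 3 had one in both ATRXΔRBR lists (Col24a1, Col4a3 and Col4a4), where the share over all genes was 4.39%. The peaks near Col4a3 and Col4a4 lay more than 1 kb from the TSS, on the Col4a4 side in replicate 1 and on the Col4a3 side in replicate 2, so that with a window of 1 kb Col24a1 alone gained the mark, and no gene did when peaks were placed by their midpoint. With 2 lists against 2, an exact permutation test of a single gene cannot go below p = 0.33. The TSSs of Col4a1 and Col4a2 are 21 bp apart and those of Col4a3 and Col4a4 are 72 bp apart, so each pair shares its window and counts as a single site. The RNA of most of these genes was near the detection limit, with at most 6 counts in any library for Col4a1, Col4a2, Col4a3, Col11a1, Col15a1, Col19a1 and Col24a1. Col4a4 had 10 and 7 counts in the WT libraries and 10 and 9 with ATRXΔRBR and was not called.

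The bases before the start of 6 genes whose TSS peaks differed between genotypes are printed because H3K27me3 and EZH2 are often found at promoters rich in CG dinucleotides. They come from RefSeq (GRCm38.p6), read 5′ to 3′ on the strand of the gene up to the last base outside any annotated exon, with each CG in capitals.
Col11a1, chr3:114030290-114030539, plus strand: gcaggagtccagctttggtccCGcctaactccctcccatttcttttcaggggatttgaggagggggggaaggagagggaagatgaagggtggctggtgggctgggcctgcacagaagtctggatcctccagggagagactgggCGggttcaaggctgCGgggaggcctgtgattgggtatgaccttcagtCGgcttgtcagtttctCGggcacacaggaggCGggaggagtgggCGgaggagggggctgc
Col15a1, chr4:47207762-47208011, plus strand: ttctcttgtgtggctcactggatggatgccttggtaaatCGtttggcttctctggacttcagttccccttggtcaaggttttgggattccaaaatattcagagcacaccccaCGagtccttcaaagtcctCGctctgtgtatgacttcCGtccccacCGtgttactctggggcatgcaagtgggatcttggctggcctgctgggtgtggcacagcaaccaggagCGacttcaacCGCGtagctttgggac
Col19a1, chr1:24587473-24587687, minus strand: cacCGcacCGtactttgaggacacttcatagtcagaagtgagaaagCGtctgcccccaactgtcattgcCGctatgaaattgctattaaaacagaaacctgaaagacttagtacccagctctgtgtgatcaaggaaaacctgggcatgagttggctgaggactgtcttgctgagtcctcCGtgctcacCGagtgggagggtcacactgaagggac
Col24a1, chr3:145292222-145292471, plus strand: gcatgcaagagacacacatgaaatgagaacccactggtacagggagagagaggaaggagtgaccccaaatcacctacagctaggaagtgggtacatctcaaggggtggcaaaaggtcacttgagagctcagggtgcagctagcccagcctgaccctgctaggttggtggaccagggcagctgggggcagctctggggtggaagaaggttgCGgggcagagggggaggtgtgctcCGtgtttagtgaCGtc
Col4a4, chr1:82586850-82586920, minus strand, the whole stretch between the starts of Col4a4 and Col4a3: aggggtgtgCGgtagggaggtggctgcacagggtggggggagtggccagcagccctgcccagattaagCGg
Col5a1, chr2:27886175-27886424, plus strand: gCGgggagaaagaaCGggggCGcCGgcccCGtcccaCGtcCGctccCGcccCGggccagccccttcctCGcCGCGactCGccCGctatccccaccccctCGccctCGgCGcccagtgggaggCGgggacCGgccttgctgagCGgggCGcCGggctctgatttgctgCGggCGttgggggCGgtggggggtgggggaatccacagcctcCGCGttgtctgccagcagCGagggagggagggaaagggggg

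The 250 bases before the start held 28 CG dinucleotides in Col5a1, which had EZH2 but no H3K27me3 in WT, 7 in Col11a1 and 3 in Col24a1. Promoters of 35 collagen genes were in the RefSeq table, with a median of 10 CG per 250 bases, and the median over all 32851 promoters was 6. The 11 matched genes with H3K27me3 at the TSS in both WT lists had a median of 15 CG and the 24 with none a median of 9, given as a description. Peaks were placed at GENCODE starts, which can differ from the RefSeq starts used here. The GENCODE start minus the RefSeq start was −49344 bp in Col25a1 (18 CG) and −1408 bp in Col27a1 (15 CG). Col4a1 (31 CG) and Col4a2 (26 CG), which share a site, were counted separately. Col24a1, which gained the mark in ATRXΔRBR, lay below the median of all promoters.

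The extent of the mark along each gene was measured as well. The share of gene length inside H3K27me3 peaks was set to have changed when both lists of a genotype lay at least 10 percentage points above or below both WT lists, a limit chosen after the values were seen. In ATRXΔRBR 6 collagen genes lay higher and 2 lower, where 5.43% of all protein-coding genes lay higher and 4.67% lower. The mean coverage over all protein-coding genes was 6.27% and 6.93% in WT and 7.29% and 6.43% in ATRXΔRBR. As a whole, the H3K27me3 lists covered 147 and 127 Mb in ATRXΔRBR, against 103 and 118 Mb in WT. Their median peak widths were 1838 and 1902 bp in ATRXΔRBR, against 1213 and 1267 bp in WT. The part of these wider lists in the coverage of collagen genes was not tested.

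Col4a3 was not covered in either WT list and was covered over 67.1% and 59.1% of its 135139 bp in ATRXΔRBR, with single peaks of up to 27854 bp. Col4a4, across the shared start, went from 0 in both WT lists to 16.6% and 14.1%. Col14a1, a FACIT collagen, kept its TSS peak in all lists, and its coverage went from 1.08% and 0.98% to 45.9% and 47.2%. Col20a1 went from 24.3% and 24.7% to 49.3% and 40.4%, Col6a4 from 1.01% and 0.78% to 15.8% and 14.8%, and Col24a1 from 0 in both to 15.4% and 11.6%. The mean coverage of the 44 collagen genes was 5.36% and 6.02% in WT and 8.01% and 7.10% in ATRXΔRBR.

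The opposite was seen in Col13a1, a transmembrane collagen, whose coverage was 59.3% and 63.4% in WT and 15.3% and 12.9% in ATRXΔRBR, and in Col25a1, a transmembrane collagen of neurons, at 30.7% and 36.2% and then 9.86% and 7.06%. Both kept a peak at the TSS. Col13a1 had no count in either WT library and 1 and 0 in ATRXΔRBR, and Col25a1 none in any library. Col2a1, whose RNA rose in ATRXΔRBR, kept H3K27me3 and EZH2 peaks at the TSS in all lists, and its coverage was 23.4% in both WT lists and 23.9% and 23.5% in ATRXΔRBR. Col4a1 lost its TSS peak in ATRXΔRBR, but its coverage was 22.2% and 27.9% in WT and 26.9% and 23.3% in ATRXΔRBR. A peak near another of its annotated transcript starts was present in both ATRXΔRBR lists.

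**Figure D4:**
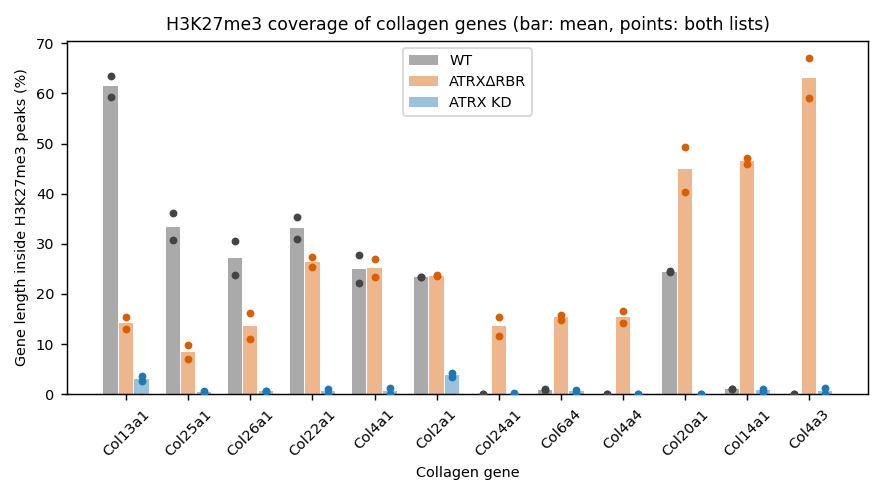
Percent of gene length inside H3K27me3 peaks for the 12 collagen genes that met the 10-point limit in either genotype, with bars for the mean and points for both lists of WT, ATRXΔRBR and ATRX KD. Col4a3 and Col14a1 stand at the right with high ATRXΔRBR bars, Col13a1 at the left with a high WT bar, and all ATRX KD values lie under 5%.

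The ATRX KD lists were much shorter than the others. H3K27me3 peaks covered 6.37 and 5.6 Mb, against 103 and 118 Mb in WT, and the lists hold no sequencing depth, so the knockdown and the yield of these lists cannot be told apart. Collagen genes with H3K27me3 at the TSS numbered 11 (25%) and 9 (20.5%), against 6.04% and 5.59% of all protein-coding genes. Of the 15 genes marked in both WT lists, 4 had no peak in either ATRX KD list (Col19a1, Col22a1, Col6a4 and Col9a2), where 58.8% of all marked genes did, and none of 29 gained a peak in both (0.446%). Col13a1, Col14a1, Col2a1, Col23a1, Col26a1 and Col27a1 had the mark at the TSS in all 6 lists. Coverage was lower by 10 points or more in 7 collagen genes (10.9% of all genes) and higher in 0 (0.1%), and the 7 were Col13a1, Col20a1, Col22a1, Col25a1, Col26a1, Col2a1 and Col4a1.

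EZH2 was at the TSS of 18 and 16 collagen genes in the WT lists, 18 and 12 in those of ATRXΔRBR and 6 and 10 in those of ATRX KD. In WT this was 40.9% and 36.4% of the 44 genes, against 50.5% and 46.8% of all protein-coding genes. Of the 15 genes with EZH2 in both WT lists, 5 reached 1 TPM, while over all protein-coding genes 83.0% of those with EZH2 in both lists did. Col11a1 was the single collagen gene that lost EZH2 in both ATRXΔRBR lists (2.66% of all genes with EZH2), and it lost H3K27me3 there too. At q under 0.01, Col11a1 had neither peak in WT replicate 1, and the EZH2 losses were those of Col15a1, Col4a1 and Col4a2. None of 25 gained EZH2 in both (0% of 10431 genes). The list of ATRXΔRBR replicate 2 was short, with 11408 EZH2 peaks, against 22418 in replicate 1 and 22316 and 18351 in WT. A gain in both lists was limited by it, and the deletion and the yield of that list cannot be told apart. In ATRX KD 7 of the 15 genes had EZH2 in neither list (Col11a1, Col12a1, Col16a1, Col4a1, Col4a2, Col5a1 and Col7a1), where the share over all genes was 40.9%, and 0 of 25 gained it (0.364%). Of these 7, Col12a1 and Col5a1 were called higher as RNA in ATRX KD and Col7a1 lower, and Col16a1 was not called.

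ATRX peaks at the TSS of collagen genes were few, with 5 and 3 genes in WT and 4 and 2 in ATRXΔRBR. Col7a1 alone had a peak in both WT lists, of 214 and 176 bp, and it had a peak in ATRXΔRBR replicate 1 as well. It was the 1 collagen gene with ATRX in both WT lists, and it was not lost from both ATRXΔRBR lists, where 11.3% of 820 such genes were. None of the 37 genes without ATRX in WT gained it in both ATRXΔRBR lists (0.392%). Col8a1 had a peak in WT replicate 2 and in both ATRXΔRBR lists. Peaks in the gene body that did not touch the TSS window were seen at 16 and 13 collagen genes in WT and 9 and 12 in ATRXΔRBR for ATRX. For EZH2 they were seen at 25 and 20 genes in the WT lists, 24 and 19 in those of ATRXΔRBR and 1 and 4 in those of ATRX KD, and for H3K27me3 at 12 and 14, 20 and 17, and 8 and 12. All shares were above those over all protein-coding genes in the same list, except that of EZH2 in ATRX KD replicate 1 (2.27% against 3.57%), and collagen genes are several times longer, as given above, which gives a peak more room to fall in.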

How the data were processed

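RNA-Seq (2 libraries per genotype) and CUT&RUN (16 peak lists) were analysed, and the 4 IgG samples were not analysed here. The authors aligned RNA-Seq reads to mm10 with STAR and deposited RSEM estimated counts and TPM per gene. The strand setting of the counting is not given in the sources used here. The authors aligned CUT&RUN reads with Bowtie2 and called broad peaks in each library with MACS2, and the deposited lists give fold enrichment and −log10 q. The antibody named for H3K27me3 differs between the methods and a supplementary table.

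Estimated counts were rounded, genes with more than 10 counts over the 4 libraries compared were kept, and groups were compared with edgeR's quasi-likelihood test (edgeR 4.0.16, R 4.3.3, TMM scaling), adjusted by Benjamini-Hochberg over all genes tested, with a threshold of 0.05. The test was tested on simulated data. Where a group held 0 counts, a fold was computed against a floor of 3 counts over both libraries, and counting intervals are at 95%. Peaks were placed with GENCODE M21: at the TSS where at least 1 base lay within 2 kb, in the gene body where a peak touched the gene outside that window. DESeq2 1.42.0, limma 3.58.1, other filters, a length correction, other peak windows and each library left out were alternatives.

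Genes were named if they were called in any comparison, were among the 10 highest in WT, or had TSS states that agreed between replicates and differed between genotypes. Of the 59 genes of the biosynthesis list, which includes proteoglycans and glycoproteins of fibrils, the called genes with the 5 largest changes per comparison were named. The collagen genes and all lists were chosen with earlier results of these data known. Replicate numbers are shared between groups, but nothing says that they pair libraries, so no block was used. Exons of 13 collagen genes overlap another gene, by at most 6.07% of their length.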

Additional observations from a re-analysis of the deposited data

How the results depend on the processing

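Each result was recomputed with 1 choice changed at a time. Of 858 alternative values for 23 named collagen genes, 731 kept direction and call, 67 lost the call, 24 gained it and 36 changed sign. With limma on log2(TPM + 1) and on log2(TPM + 0.1), the collagen calls in ATRXΔRBR were 2 higher and 1 lower, the biosynthesis genes called higher were 2, and 6 collagen genes were lower in ATRX KD. The median log2 fold changes of the collagen genes were then 0 and 0 for ATRXΔRBR, −0.21 and −0.64 for ATRX KD, and −0.12 and −0.14 for ATRX KD against ATRXΔRBR. With at least 10 counts in every library, which removes genes absent from a group, 3 collagen genes were lower in ATRX KD and 4 against ATRXΔRBR, the biosynthesis genes lower were 4 and 10, and the medians were 0.17, −0.02 and −0.02. Without a filter the ATRXΔRBR median was −0.08, and with the length trend removed −0.20. Biosynthesis genes called in ATRXΔRBR were 12 higher and 5 lower without a filter, and 12 and 7 with all 6 libraries in 1 fit. The cause was not tested.

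With each library left out in turn, collagen calls ranged from 2 to 8 higher in ATRX KD and 2 to 5 higher against ATRXΔRBR. Biosynthesis calls ranged from 8 to 11 higher in ATRXΔRBR, 5 to 21 in ATRX KD and 10 to 25 against ATRXΔRBR. The medians ranged from −0.20 to 0.00, from −1.30 to −0.39 and from −0.33 to −0.19. With the replicate number as a block, 5 collagen genes were higher and 3 lower in ATRXΔRBR, 6 and 10 in ATRX KD, and 5 and 9 against ATRXΔRBR. Deviations from the group means of libraries with the same number correlated at −0.575 (ATRXΔRBR and WT), −0.0854 (ATRX KD and WT) and 0.111 (ATRX KD and ATRXΔRBR) over 13288 genes. The crossed pairing, chosen after seeing the data, gave 9 higher and 9 lower in ATRXΔRBR.

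The sign changes were all of differences that were uncalled and at most 0.34 in size with all libraries, in the fits given above. Some alternative values of these genes were larger or were called. In ATRXΔRBR they were Col16a1 (0.06 with limma, −0.24 to 0.25 with libraries left out), Col5a2 (0.05, −0.09 to 0.05), Col4a4 (−0.04 to 0.65) and Col8a1 (−0.13 to 0.02). In ATRX KD they were Col16a1 (−0.10 with the length trend removed, −0.17 to 0.31), Col6a2 (−0.15 with that trend removed), Col1a1 (−0.04 to 0.85), Col1a2 (0.13 with limma, −0.32 to 0.17), Col6a1 (0.07 with limma), Col8a1 (0.20 and 0.21, −0.02 to 0.01) and Col8a2 (0.17, −0.12 to 0.03). Against ATRXΔRBR they were Col11a2 (0.44 and 0.73 with limma, −0.28 to 0.15), Col16a1 (−0.03 with the length trend removed, −0.06 to 0.18), Col7a1 (−0.04) and Col8a1 (−0.08, −0.03 to 0.10).

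At q under 0.01, the mean number of collagen genes with a TSS peak was 1 (ATRX in WT), 1.5 (ATRX in ATRXΔRBR), 4.5 (EZH2 in ATRX KD) and 6.5 (H3K27me3 in ATRX KD). With peaks in the gene body it was 9 and 6.5 (ATRX in WT and ATRXΔRBR), 8 (H3K27me3 in WT), 1 (EZH2 in ATRX KD, 1 to 4 with a list left out) and 1.5 (H3K27me3 in ATRX KD). Of TSS peaks lost or gained in both lists, under settings chosen after seeing the data, the 3 H3K27me3 gains in ATRXΔRBR became 1 with a window of 1 kb and 0 by midpoint, the H3K27me3 gains in ATRX KD became 1 by midpoint (Col26a1), the EZH2 losses in ATRXΔRBR became 3 at q under 0.01 (Col15a1, Col4a1 and Col4a2), and the ATRX losses became 1 with any transcript start (Col1a2). A window of 1 kb left 1.5 ATRX genes in WT, and placing peaks by their midpoint left 8 H3K27me3 genes in ATRXΔRBR. With 2 libraries or lists a group, small changes and genes of few counts could not be resolved.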
